A study of Homo sapiens with 6 samples.

Results

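The molecular chaperones of human cells were examined in PC-9 cells with and without a knockdown of IFITM3. The set held the HSP70, HSP90, HSP110 and small heat shock proteins, the DNAJ co-chaperones, the chaperonins and the heat shock factors HSF1 and HSF2. Members were taken by gene symbol from the deposited table, without pseudogene, antisense and read-through rows, which gave 83 of its 26485 symbols. PC-9 is an established lung adenocarcinoma line that grows on mutant EGFR. Its cells stably expressed either a specific short hairpin RNA (shRNA) against IFITM3, an interferon-induced membrane protein (shIFITM3), or a control (shControl), with 3 biological replicates of each and thus 6 samples. The titles call the control an shRNA and the column names call it EV, and the labels do not settle which it was. Both populations grew in the same serum-supplemented medium and no drug is named in the labels, although the title of the study speaks of osimertinib resistance, MET and AKT. Osimertinib inhibits mutant EGFR, and MET is a receptor kinase. As 1 hairpin reagent is named, loss of IFITM3 and other effects of that hairpin cannot be told apart.

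Chaperones bind unfolded segments of proteins and let them fold, assemble or be degraded. HSP70 proteins do so in cycles of ATP binding and hydrolysis, which DNAJ proteins start and nucleotide exchange factors such as HSP110 close. HSP90 takes clients such as kinases and receptors further, and mutant EGFR and MET are among its known clients in lung cancer cells. The chaperonin TRiC, a double ring of 8 kinds of subunit, encloses actin and tubulin while they fold. Each compartment has its own set: HSPA5 and HSP90B1 in the endoplasmic reticulum (ER), and HSPA9 with the HSPD1 and HSPE1 chaperonin in mitochondria. Heat shock factors switch on the cytosolic set, and the unfolded protein response that of the ER.

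Levels are CPM, counts scaled to library size with TMM factors, and fold changes are shIFITM3 against shControl on the log2 scale. The sign ± gives the SD over 3 samples. A gene is said to rise or fall only where the adjusted p of edgeR's quasi-likelihood test over all tested genes was under 0.05. Libraries held 21342028 to 77228760 counts, the deepest being shControl replicate 2. The targeted gene, IFITM3, was at 56.99, 60.5 and 62.8 CPM in the shControl samples, in the order of their replicate numbers, and at 10.4, 12.9 and 9.75 CPM in the shIFITM3 samples, and so went with the labels (log2 fold change -2.45, edgeR adjusted p = 5.97e-18). Samples of 1 group correlated across genes at r = 0.992 to 0.995, and samples of different groups at 0.971 to 0.975. All 6 epithelial markers were expressed, with a summed level of 7352 to 7445 CPM in shControl and 5999 to 6222 CPM in shIFITM3. Of these KRT8 (3677 ± 27.3 and 2603 ± 34.2 CPM), KRT18 and CDH1 fell, CLDN4 and EPCAM rose, and KRT19 did not pass. The lung markers NKX2-1, NAPSA, SFTPB and SFTPC together reached at most 0.522 CPM in any sample, so the lung lineage of the line does not show in them. Summed levels were 9.18 to 10.5 CPM in shControl and 9.996 to 13.7 CPM in shIFITM3 for 6 fibroblast markers, where DCN and LUM were at 0. For 6 immune markers they were 63.5 to 71.2 and 73.1 to 78.6 CPM, nearly all from CD68, with PTPRC at or below 0.321 CPM in both means. For 4 endothelial markers they were 3.43 to 4.29 and 5.26 to 6.28 CPM, within which KDR (0.348 ± 0.237 and 2.69 ± 0.238 CPM) and CDH5 (0.666 ± 0.288 and 2.04 ± 0.309 CPM) rose and PECAM1 fell (2.7 ± 0.36 and 0.842 ± 0.0905 CPM). The part of these differences in the chaperone results was not tested. The counts come from bulk RNA, in which fewer cells making a transcript and less of it per cell cannot be told apart.

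Of the 83 members, 72 were expressed enough to be tested. Among these 17 rose and 31 fell, 23.6% and 43.1%, where 27.7% and 28.4% of all 14018 tested genes did (56.1% in either direction). Their median log2 fold change was -0.10, against 0.00 for all tested genes. Differences were mostly small: 11 changed members (of 72) moved by at least 0.5 on the log2 scale. Of all tested genes 19.7% changed by that much, 12.9% up and 6.84% down. Most of these 11 members rose: HSPB8, HSPA12B, DNAJA4, DNAJC6, DNAJB9, DNAJB2, DNAJB1 and DNAJB6. The others, HSPA2, DNAJC19 and DNAJA1, fell. The groups did not overlap in CPM in 51 of the 72 members, 18 higher and 33 lower in shIFITM3, beside 30.1% higher and 30.8% lower over all tested genes (60.9% in all). Among abundant genes falls were more frequent than rises. Of 2484 tested genes with a mean of at least 100 CPM over all samples, 31% rose and 46.1% fell (77.1% in either direction), and of the 32 members at that level 7 (21.9%) rose and 22 (68.8%) fell. Their medians were -0.06 and -0.15. The 11 members too low to be tested were DNAJB7, DNAJB8, DNAJB13, DNAJC5B, DNAJC5G, DNAJC12, DNAJC28, HSPB2, HSPB3, HSPB7 and HSPB9, several of which are known from testis or muscle.

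Directions were counted by compartment, without a test between compartments. Members and compartments were chosen with earlier results of these data known. TRiC subunits fell in 8 of 9 cases and mitochondrial chaperones in 7 of 8, with 0 rises in either. Falls made up 88.9% and 87.5%, beside 28.4% of all tested genes. The TRiC genes that fell all had a mean above 100 CPM, a level at which 46.1% of tested genes fell. Of 33 tested cytosolic and nuclear members 15 fell (45.5%) and 9 rose (27.3%). Of 13 in the ER 1 fell (7.69%) and 4 rose (30.8%). The shares of rises in the cytosol and the ER lie near the 27.7% of all tested genes. Medians were -0.35 for TRiC, -0.21 for mitochondria, -0.10 for the cytosol and 0.07 for the ER.

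**Figure D1:**
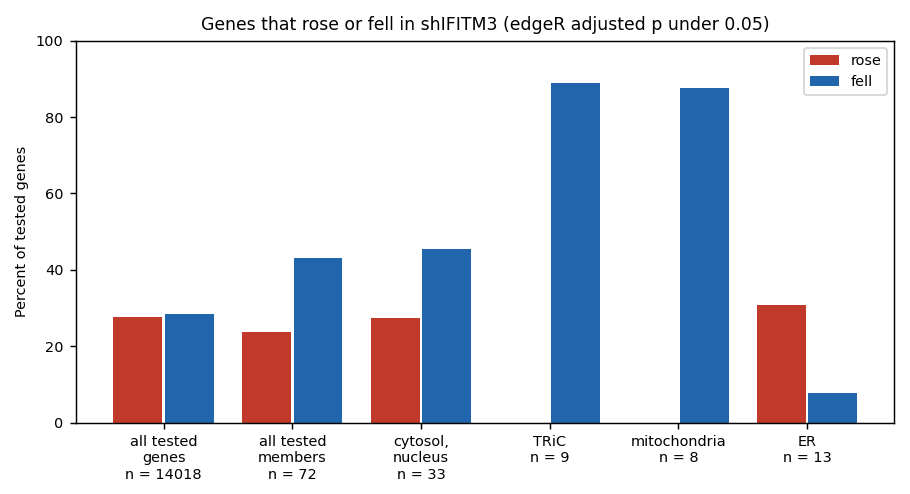
Percent of tested genes that rose (red) or fell (blue) in shIFITM3 against shControl, for all tested genes, all tested chaperone members and 4 compartments, with the number tested below each pair of bars. In TRiC and mitochondria 88.9% and 87.5% fell and none rose, whereas 28.4% of all tested genes fell. Of tested genes with a mean of at least 100 CPM, 46.1% fell.

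**Figure D2:**
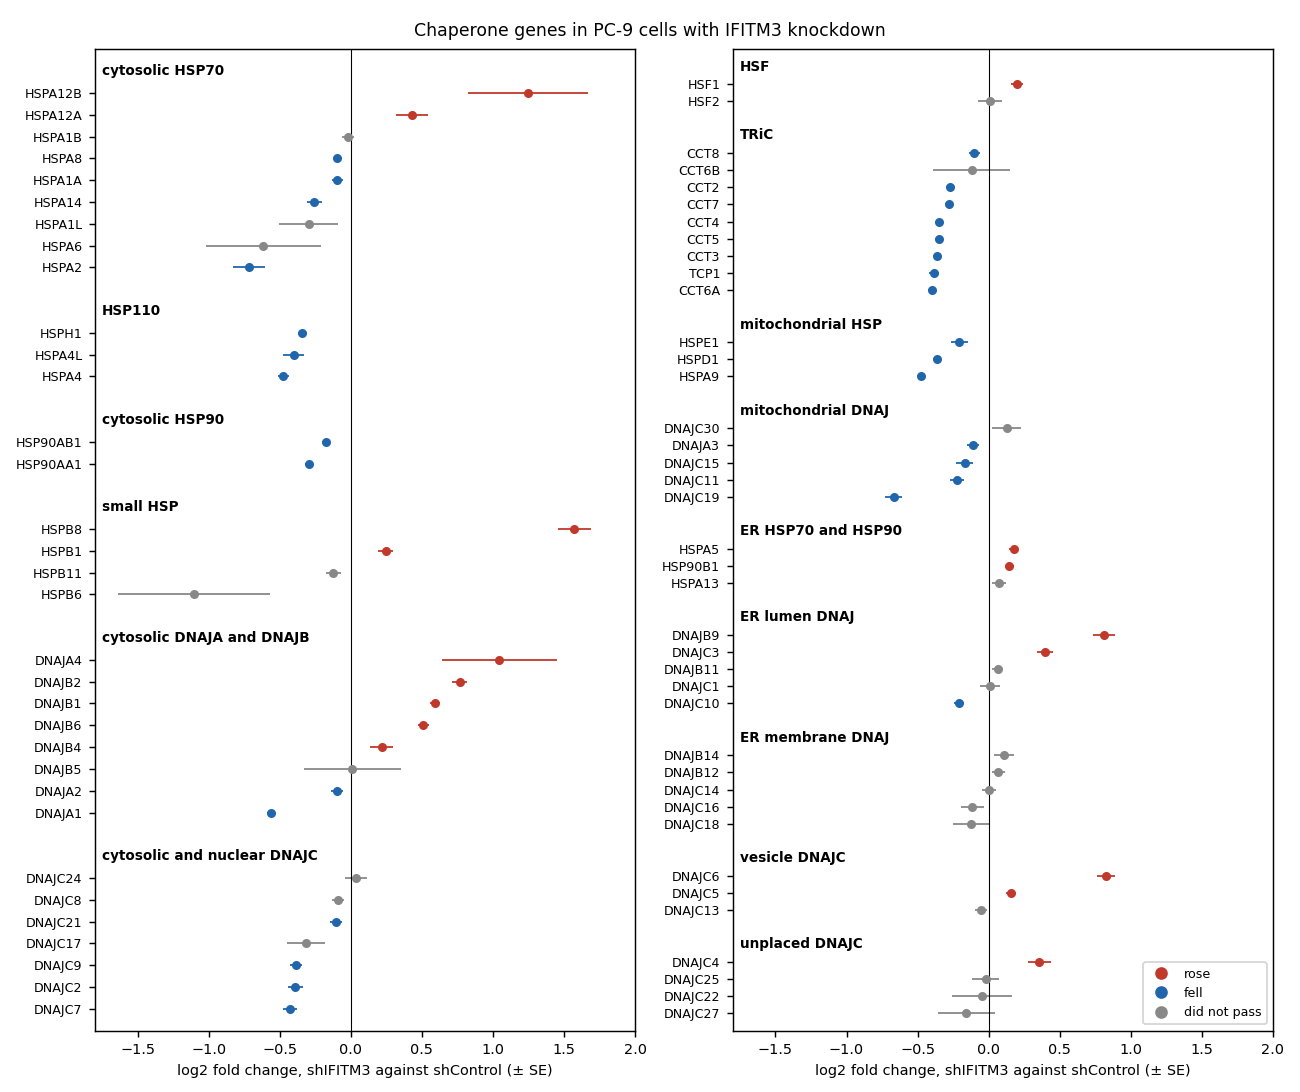
Log2 fold change of each of the 72 tested members (points) with its standard error (lines), by class, with rises in red, falls in blue and members that did not pass in grey. HSPB8 has the largest rise at 1.57, and most TRiC subunits lie between -0.40 and -0.27.

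HSF1 and HSF2, the transcription factors that bind heat shock elements, were both expressed. HSF1 was at 149, 155 and 149 CPM in the shControl samples, in the order of their replicate numbers, and at 174, 183 and 164 CPM in the shIFITM3 samples. Every shIFITM3 sample was above every shControl sample, a small rise (0.20 on the log2 scale with an SE of 0.041, adjusted p = 0.000202 in edgeR). HSF2 was at 20.7, 18.7 and 21.02 CPM in shControl and 18.2, 20.2 and 22.01 CPM in shIFITM3, with overlapping groups (0.01 on the log2 scale with an SE of 0.0854, adjusted p = 0.925 in edgeR).

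Of the cytosolic HSP70 genes 9 were tested, of which 4 fell (44.4%) and 2 rose (22.2%), beside 28.4% and 27.7% of all tested genes. HSPA8 (chromosome 11, 123057489 to 123062462, GRCh38), the constitutive HSP70, had 2934, 2894 and 2971 CPM in shControl and 2742, 2717 and 2778 CPM in shIFITM3. All 3 shIFITM3 values were below all shControl values, and the fall was small (-0.10 on the log2 scale with an SE of 0.0221, adjusted p = 0.000765 in edgeR). The stress-inducible pair HSPA1A and HSPA1B showed at most a slight difference. HSPA1A was at 209, 202 and 216 CPM in shControl and 206, 189 and 191 CPM in shIFITM3, with shIFITM3 replicate 1 inside the control range (log2 fold change -0.10, edgeR adjusted p = 0.0385). HSPA1B was at 143, 125 and 140.1 CPM in shControl and 132, 134 and 135 CPM in shIFITM3, and did not pass (log2 fold change -0.02, edgeR adjusted p = 0.729). These genes are near-identical and their reads are hard to assign, and summed as 1 gene they gave -0.07 with an edgeR adjusted p of 0.105. The call for HSPA1A also ended when any one of shControl replicates 1 and 3 and shIFITM3 replicates 2 and 3 was left out (edgeR adjusted p between 0.0637 and 0.182). With every sample kept it ended under total-count scaling (edgeR adjusted p = 0.0622) and in DESeq2 (adjusted p = 0.0574). HSPA6, an HSP70 made almost only under stress, was at 0.727 ± 0.106 and 0.464 ± 0.0876 CPM and did not pass (edgeR adjusted p = 0.204).

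Larger changes were seen in HSP70 members of low level. HSPA2, known for its role in male germ cells, was at 13.3, 16.3 and 14.01 CPM in shControl and 8.13, 8.09 and 10.6 CPM in shIFITM3. It fell with no overlap between the groups (-0.72 on the log2 scale with an SE of 0.116, adjusted p = 1.14e-05 in edgeR). HSPA14, which works at the ribosome, fell from 83.97 ± 5.28 to 69.95 ± 3.72 CPM (log2 fold change -0.26, edgeR adjusted p = 0.000197). The distant relatives HSPA12A (0.43, from 7.75 ± 0.142 to 10.5 ± 1.13 CPM) and HSPA12B (1.25, from 0.436 ± 0.199 to 0.963 ± 0.194 CPM) rose, with edgeR adjusted p of 0.00232 and 0.0149. The call for HSPA12B ended without shControl replicate 2 (0.149) or shIFITM3 replicate 1 (0.0682). HSPA1L did not pass (-0.30, edgeR adjusted p = 0.236).

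All 3 HSP110 genes, whose products exchange the nucleotide of HSP70, fell, beside 28.4% of all tested genes. HSPA4 and HSPH1 had means above 100 CPM, a level at which 46.1% of tested genes fell. HSPA4 (chromosome 5, 133052013 to 133106449) was at 346, 333 and 331 CPM in shControl and 249.6, 229 and 248 CPM in shIFITM3 (-0.47 on the log2 scale with an SE of 0.0359, adjusted p = 6.06e-11 in edgeR). HSPH1 was at 398, 390.0 and 403 CPM in shControl and 307, 316 and 317 CPM in shIFITM3 (-0.34 on the log2 scale with an SE of 0.0306, adjusted p = 1.28e-09 in edgeR). In both genes the control samples lay close together and far above the knockdown samples. HSPA4L fell by a similar amount, from 24.2 ± 0.456 to 18.3 ± 1.12 CPM (-0.40, edgeR adjusted p = 9.09e-05).

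Both cytosolic HSP90 genes fell too, at levels above 100 CPM, where 46.1% of tested genes fell. HSP90AA1 (chromosome 14, 102080742 to 102139749), the inducible form, was at 11412, 10598 and 10933 CPM in shControl and 9079.7, 8537 and 9207 CPM in shIFITM3 (-0.30 on the log2 scale with an SE of 0.0261, adjusted p = 9.4e-10 in edgeR). HSP90AB1 (chromosome 6, 44246194 to 44253883), the constitutive form, was at 2672, 2618 and 2605 CPM in shControl and 2322, 2318 and 2339.6 CPM in shIFITM3 (-0.18 on the log2 scale with an SE of 0.0223, adjusted p = 3.15e-07 in edgeR). The groups did not overlap in either gene. A list of cytosolic co-chaperones and related factors, among them the heat shock factor HSF4 and HSBP1, had 25 tested genes. Of these 13 fell (52%) and 3 rose (12%), beside 28.4% and 27.7% of all tested genes (median -0.13). Levels in the list vary, and of tested genes with a mean of at least 100 CPM 46.1% fell. The list was chosen with earlier results of these data known, so its shares cannot serve as support. HSF4 is 1 of the 3 that rose (0.34). The kinase loader CDC37 fell from 262 ± 9.69 to 188 ± 6.33 CPM (-0.48, edgeR adjusted p = 8.49e-11). PTGES3, the p23 protein of late HSP90 complexes, fell from 673 ± 17.7 to 528 ± 15.3 CPM (-0.35, edgeR adjusted p = 6.78e-10). STIP1, which joins HSP70 to HSP90, fell from 612 ± 4.83 to 523 ± 5.4 CPM (-0.23, edgeR adjusted p = 1.78e-07).

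Small heat shock proteins, which hold unfolded proteins without using ATP, included the largest rise of all members. HSPB8 (chromosome 12, 119178931 to 119194746), which delivers clients to autophagy with the co-chaperone BAG3, was at 6.65, 7.43 and 5.95 CPM in the shControl samples, in the order of their replicate numbers, and at 19.7, 17.5 and 23.4 CPM in the shIFITM3 samples. The lowest knockdown sample was more than double the highest control sample (1.57 on the log2 scale with an SE of 0.115, adjusted p = 3.27e-11 in edgeR). BAG3 itself was at 129 ± 4.45 and 136 ± 7.23 CPM and did not pass (edgeR adjusted p = 0.192). HSPB1, also called HSP27, was at 153, 174 and 168 CPM in shControl and 186, 216 and 185 CPM in shIFITM3 and rose slightly (0.24 on the log2 scale with an SE of 0.051, adjusted p = 0.000255 in edgeR). HSPB11, a subunit of intraflagellar transport rather than a typical small heat shock protein, did not pass (-0.12, edgeR adjusted p = 0.0595). HSPB6 was at 0.475 ± 0.0408 and 0.214 ± 0.122 CPM and did not pass either (edgeR adjusted p = 0.0839).

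The DNAJA and DNAJB proteins of the cytosol, which hand clients to HSP70, split by gene. DNAJB1 (chromosome 19, 14514769 to 14560391), the main partner of HSP70 in dissolving aggregates, was at 181, 192 and 193 CPM in the shControl samples, in the order of their replicate numbers, and at 284, 282 and 286 CPM in the shIFITM3 samples. Knockdown samples were almost equal and all far above the controls (0.59 on the log2 scale with an SE of 0.0346, adjusted p = 5.3e-13 in edgeR). DNAJB2 was at 38.2, 35.9 and 35.8 CPM in shControl and 64.2, 61.5 and 60.6 CPM in shIFITM3 and DNAJB6 at 208, 221 and 203 CPM in shControl and 296, 288 and 316 CPM in shIFITM3, both known to keep polyglutamine proteins soluble. Neither gene's groups overlapped, and both rose, DNAJB2 by 0.77 (SE 0.0528, edgeR adjusted p = 1.11e-11) and DNAJB6 by 0.51 (SE 0.0388, edgeR adjusted p = 7.04e-11). DNAJB4 rose by 0.22 from 18.1 ± 0.799 to 20.99 ± 0.878 CPM (edgeR adjusted p = 0.0242). Its call ended without shControl replicate 2 (0.127), shIFITM3 replicate 1 (0.0769) or shIFITM3 replicate 3 (0.0643). DNAJA1 (chromosome 9, 33025273 to 33039907), a farnesylated partner of HSPA8, went the other way, with 283, 271 and 279 CPM in shControl and 183, 188 and 194 CPM in shIFITM3. This was the largest fall among the abundant cytosolic members (-0.56 on the log2 scale with an SE of 0.0348, adjusted p = 1.64e-12 in edgeR). DNAJA2 was lower by a margin at the threshold (-0.10, edgeR adjusted p = 0.0488), and its call ended without any one of shControl replicates 2 and 3 and shIFITM3 replicates 2 and 3 (edgeR adjusted p between 0.114 and 0.168). The DNAJA2 call also ended with every sample kept, under total-count scaling (edgeR adjusted p = 0.0784) and in DESeq2 (adjusted p = 0.0683). DNAJA4, at 0.613, 0.546 and 0.547 CPM in shControl and 1.77, 0.522 and 1.21 CPM in shIFITM3, rested on 2 of 3 knockdown samples (1.05, edgeR adjusted p = 0.0303). That call ended in 4 of the 6 fits that leave out a sample, without shControl replicate 2 (0.0993) or 3 (0.0687) or shIFITM3 replicate 1 (0.267) or 3 (0.0811), and with the replicate number as a block (0.0742). DNAJB5 did not pass (0.01, edgeR adjusted p = 0.98).

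**Figure D3:**
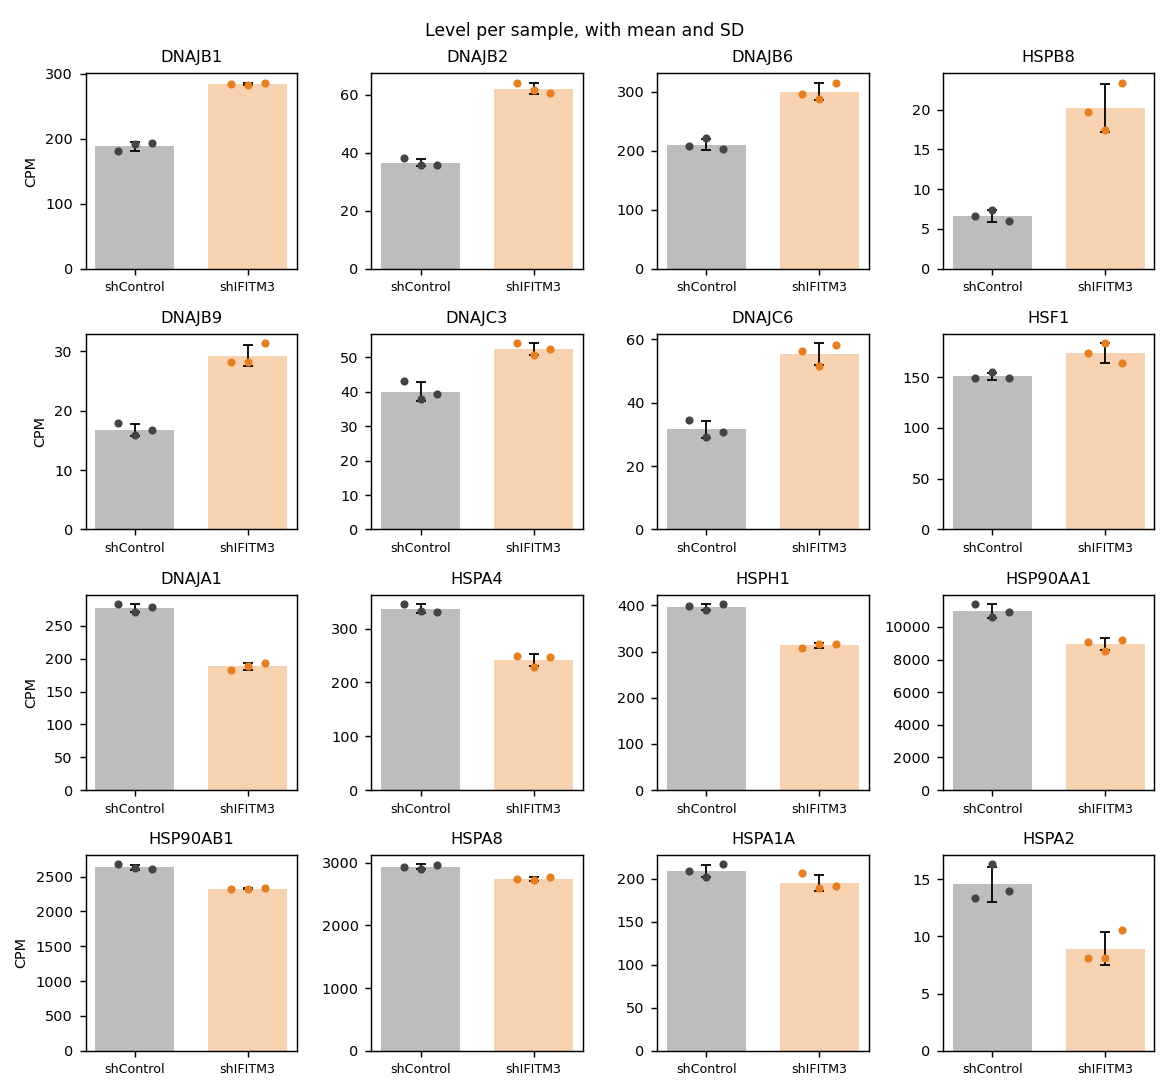
CPM of 16 members in each sample (points), with the mean of 3 samples (bars) and its SD (error lines), shControl in grey and shIFITM3 in orange; each panel has its own axis from 0. Knockdown samples lie above the controls in the panels from DNAJB1 to HSF1 and below them in the others, apart from HSPA1A, where the groups overlap.

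Among the DNAJC members of cytosol and nucleus 4 of 7 fell (57.1%, beside 28.4% of all tested genes) and none rose. DNAJC7, a co-chaperone that binds both HSP70 and HSP90, was at 119, 110.4 and 109 CPM in shControl and 80.5, 80.5 and 90.2 CPM in shIFITM3 (-0.43 on the log2 scale with an SE of 0.0491, adjusted p = 8.34e-08 in edgeR). DNAJC2, which forms the ribosome-associated complex with HSPA14, was at 75.2, 68.6 and 70.1 CPM in shControl and 51.5, 54.96 and 56.1 CPM in shIFITM3 (-0.39, edgeR adjusted p = 6.63e-07). DNAJC9, a histone co-chaperone, was at 139, 137 and 141 CPM in shControl and 103, 109 and 108 CPM in shIFITM3 (-0.38, edgeR adjusted p = 1.45e-08). In these 3 genes no knockdown sample reached the control range. DNAJC9 shares 24% of its exon bases with FAM149B1 on the opposite strand. DNAJC21, which acts in making the large ribosomal subunit, had -0.10 (edgeR adjusted p = 0.0368), a call that ended without any one of shControl replicates 1 and 2 and shIFITM3 replicates 1 and 2 (edgeR adjusted p between 0.109 and 0.145). It also ended with every sample kept, under total-count scaling (edgeR adjusted p = 0.0572) and in DESeq2 (adjusted p = 0.0556). The splicing-related DNAJC8 (-0.09) and DNAJC17 (-0.31) and the diphthamide factor DNAJC24 (0.04) did not pass.

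Promoters were searched for the letters that heat shock factors and the ER stress factors are known to bind. The RefSeq windows (GRCh38.p14, 250 bases before to 50 after the start) covered 74 members. A pair of heat shock units, GAANNTTC or TTCNNGAA, both of which read the same on either strand, was present in 15 of the 65 tested members with a window (23.1%) and in 13.7% of all 27305 promoters. It was found in 3 of 15 members that rose and 7 of 29 that fell. The triple unit, such a pair followed after 2 more bases by a further inverted GAA or TTC, was present in 4 tested members and 0.487% of all promoters. The ER stress element, CCAAT and CCACG with any 9 bases between them on either strand, contains a CCAAT box and was present in HSPA5 and HSP90B1 and in 0.0806% of all promoters. The first 4 windows below show the pair in genes that went in different directions, HSPA8 and DNAJA1 lower and DNAJB6 and HSPB8 higher, and the last 2 the ER stress element. Capitals mark the matched letters, and each stretch is the one nearest before the RefSeq start that the window was cut on. That start is not the only one: exons of other annotated transcripts cover the stretch in HSPA8, HSPB8 and HSP90B1, and an exon of the neighbour APTX covers that of DNAJA1 (GENCODE release 29). For HSPA8 the RefSeq gene span given above also begins further upstream.
HSPA8: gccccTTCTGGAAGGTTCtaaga
DNAJA1: ctccaGAAGATTCcacga
DNAJB6: gccgaGAACCTTCGCGAAggtgg
HSPB8: cctccGAATATTCctgtg
HSPA5: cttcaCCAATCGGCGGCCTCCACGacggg
HSP90B1: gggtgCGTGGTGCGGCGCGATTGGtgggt
The HSPA8 stretch is at chr11:123062174-123062196 (minus strand), that of DNAJA1 at chr9:33025070-33025087 (plus) and that of DNAJB6 at chr7:157336868-157336890 (plus). The HSPB8 stretch is at chr12:119178838-119178855 (plus), that of HSPA5 at chr9:125241386-125241414 (minus) and that of HSP90B1 at chr12:103930316-103930344 (plus). In HSPA8 and DNAJB6 the capitals form a triple unit. DNAJA1 holds 1 triple unit as well, which lies after its start and is not printed. Each match describes letters only and does not show that a factor was bound.

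Of the 9 TRiC genes 8 fell, all but CCT6B. TCP1, the alpha subunit, was at 302, 280.1 and 295 CPM in the shControl samples, in the order of their replicate numbers, and at 229, 216 and 225 CPM in the shIFITM3 samples. CCT6A, the zeta subunit, fell most, with 1007, 977 and 983 CPM in shControl and 747, 746 and 755 CPM in shIFITM3 (-0.40 on the log2 scale with an SE of 0.0261, adjusted p = 3.99e-12 in edgeR). CCT5 was at 1714, 1655 and 1707 CPM in shControl and 1328, 1291 and 1361 CPM in shIFITM3, and CCT3 at 607, 604 and 617 CPM in shControl and 480.1, 473 and 469.8 CPM in shIFITM3. In each of these 4 genes all knockdown samples lay between 74.1% and 80.4% of the control mean, with control samples between 95.9% and 103.3%. Log2 fold changes were -0.38 for TCP1, -0.35 for CCT5 (edgeR adjusted p = 4.08e-11), -0.36 for CCT3 (edgeR adjusted p = 9e-11) and -0.35 for CCT4. CCT2 (-0.27) and CCT7 (-0.28) fell less. CCT8, the theta subunit, fell least, from 246 ± 6.64 to 229.8 ± 8.67 CPM (-0.10, edgeR adjusted p = 0.0217). The CCT8 call ended without shControl replicate 1 (0.0546), shControl replicate 3 (0.0949) or shIFITM3 replicate 1 (0.142). CCT6B, a relative of CCT6A known from testis, was at 1.68 ± 0.195 and 1.56 ± 0.354 CPM and did not pass (edgeR adjusted p = 0.731). Per kilobase of merged exon (GENCODE release 29), mean levels in shControl ran from 59.3 CPM per kb for TCP1 to 289.8 for CCT5 among the 8 main subunits. Merged exons join all annotated transcripts rather than the expressed ones, so these values are only a rough guide to transcript numbers. The subunits are built into the complex in equal numbers, but that refers to protein, which was not measured. TCP1 shares 397 bases of exon, 8.05% of its own, with ACAT2 on the opposite strand, which rose (log2 fold change 1.94). Whether the counting used strand is not stated, so the share of these reads in the TCP1 counts is unknown.

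Of 12 tested partners of TRiC 4 rose and 4 fell (33.3% each), shares near the 27.7% and 28.4% of all tested genes. PDCL3, a phosducin-like co-factor of the chaperonin, fell from 40.5 ± 1.92 to 28.04 ± 1.05 CPM (-0.53, edgeR adjusted p = 1.17e-07). Of the prefoldin subunits, which pass clients to TRiC, VBP1 fell from 126 ± 6.44 to 104 ± 7.11 CPM (-0.27, edgeR adjusted p = 4.58e-05) and PFDN1 rose from 69.3 ± 0.436 to 79.3 ± 1.73 CPM (0.19, edgeR adjusted p = 0.000628).

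**Figure D4:**
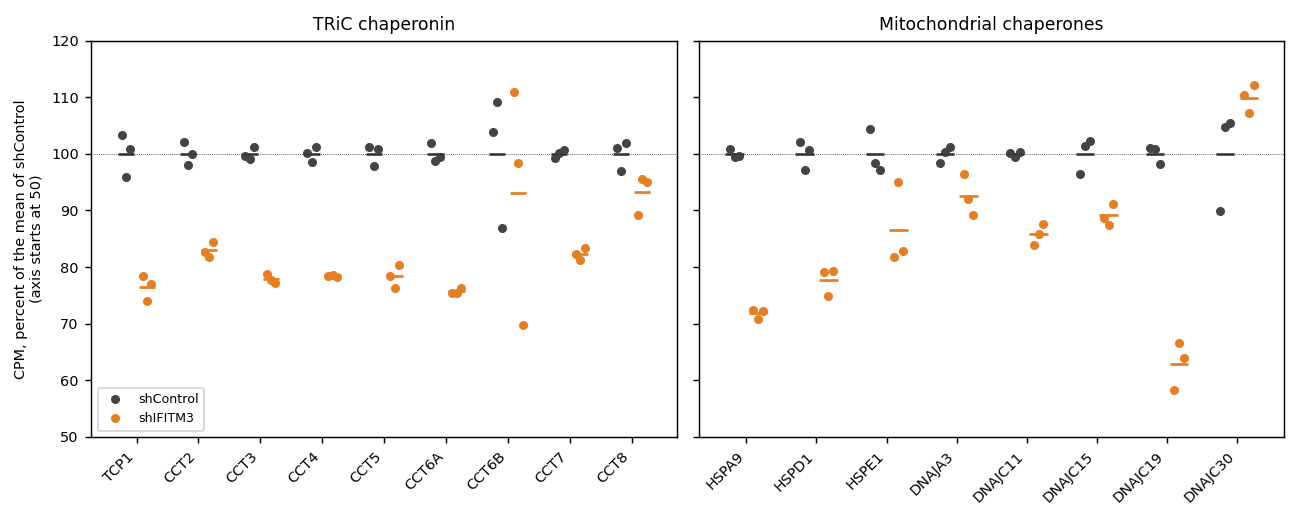
CPM of TRiC subunits and mitochondrial chaperones in each sample (points) as a percent of the mean of the shControl samples, with group means (lines), shControl in grey and shIFITM3 in orange; the axis starts at 50. The knockdown samples lie below the controls in 8 TRiC genes and 7 mitochondrial genes, CCT6B overlaps, and DNAJC30 lies higher.

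Of the 8 mitochondrial members 7 fell, all but DNAJC30. HSPA9 (chromosome 5, 138553756 to 138575401), the HSP70 that pulls proteins into the matrix, was at 659, 649.9 and 651 CPM in the shControl samples, in the order of their replicate numbers, and at 473, 463 and 472 CPM in the shIFITM3 samples. Its samples varied little within a group (-0.48 on the log2 scale with an SE of 0.0277, adjusted p = 4.35e-13 in edgeR). HSPD1, the chaperonin HSP60, was at 1405, 1337 and 1385 CPM in shControl and 1088, 1031 and 1089.9 CPM in shIFITM3 (-0.36 on the log2 scale with an SE of 0.0279, adjusted p = 8.23e-11 in edgeR). Its lid HSPE1 was at 52.3, 49.4 and 48.7 CPM in shControl and 41.03, 47.6 and 41.5 CPM in shIFITM3, also without overlap (-0.21 on the log2 scale with an SE of 0.0597, adjusted p = 0.00526 in edgeR). HSPD1 and HSPE1 stand head to head on chromosome 2 and share 281 bases of exon on opposite strands. These are 14.2% of the exon bases of HSPE1, and the far more abundant HSPD1 fell as well. Whether the counting used strand is not stated, so the share of HSPD1 reads in the HSPE1 counts, and in their fall, is unknown. GENCODE lists 17 pseudogenes named after HSPD1, 26 after HSPE1 and 17 after HSPA8, so the absolute levels of these genes are uncertain. DNAJC19, a part of the import motor in the inner membrane, fell most among mitochondrial members, with 46.003, 45.9 and 44.7 CPM in shControl and 26.5, 30.4 and 29.1 CPM in shIFITM3 (-0.67 on the log2 scale with an SE of 0.0613, adjusted p = 1.82e-09 in edgeR); 9 pseudogenes carry its name. Its relative DNAJC15 (-0.17, edgeR adjusted p = 0.0167), DNAJA3, the HSP40 of the matrix (-0.11, 0.0249), and DNAJC11, which supports cristae (-0.22, 0.000407), fell by less. DNAJC11 shares 27.9% of its exon bases with THAP3 on the opposite strand, which was at 4.54 and 6.50 CPM on average. The call for DNAJC15 ended without shControl replicate 2 (0.07) or 3 (0.0573), and that for DNAJA3 without shControl replicate 2 (0.0693), shControl replicate 3 (0.079) or shIFITM3 replicate 3 (0.123). DNAJC30 was at 9.66, 11.2 and 11.3 CPM in shControl and 11.9, 11.5 and 12.1 CPM in shIFITM3 and did not pass (0.13, edgeR adjusted p = 0.301). The list of mitochondrial partners was chosen with earlier results of these data known, so its shares cannot serve as support. Of 9 tested partners in mitochondria 5 fell (55.6%, beside 28.4% of all tested genes) and none rose. They included TRAP1, the mitochondrial HSP90 (-0.43, from 269.8 ± 5.57 to 201 ± 2.17 CPM), the protease LONP1 (-0.26) and the disaggregase CLPB (-0.39), with edgeR adjusted p of 9.44e-11, 1.15e-05 and 1.44e-05.

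In the ER 4 members rose, 1 fell and 8 did not pass. HSPA5 (chromosome 9, 125234853 to 125241343), the ER HSP70 also called BiP, was at 742, 736 and 716 CPM in the shControl samples, in the order of their replicate numbers, and at 837, 786 and 854 CPM in the shIFITM3 samples. HSP90B1 (chromosome 12, 103930410 to 103947926), the ER HSP90, was at 758, 721 and 713 CPM in shControl and 792, 793 and 837 CPM in shIFITM3. Both rose a little without overlap between the groups, HSPA5 by 0.18 (SE 0.0305, edgeR adjusted p = 3.12e-05) and HSP90B1 by 0.14 (SE 0.0302, edgeR adjusted p = 0.000259). These are the genes whose promoters hold the ER stress element printed above, 2 of 12 ER members with a window. The windows of DNAJB9 and DNAJC3, the other ER members that rose, lack it. A part of the element in these rises was not tested. Among DNAJ proteins of the ER lumen the rise was larger in DNAJB9, a regulator of BiP and of the stress sensor IRE1, with 17.9, 15.8 and 16.7 CPM in shControl and 28.1, 28.3 and 31.3 CPM in shIFITM3 (0.81 on the log2 scale with an SE of 0.0777, adjusted p = 4.02e-09 in edgeR). DNAJB9 shares 99 bases of exon with PNPLA8 on the opposite strand, 3.49% of its exons, and PNPLA8 rose too (0.87). DNAJC3, a co-chaperone of BiP that also inhibits eIF2 alpha kinases, was at 43.03, 37.9 and 39.3 CPM in shControl and 54.1, 50.6 and 52.4 CPM in shIFITM3 (0.40 on the log2 scale with an SE of 0.0574, adjusted p = 2.73e-06 in edgeR). DNAJC10, a reductase that opens disulfides of proteins bound for degradation, was the 1 member of the ER that fell, from 379 ± 13.3 to 327 ± 10.9 CPM (-0.21, edgeR adjusted p = 1.16e-05). HSPA13 (0.07), DNAJB11 (0.06) and DNAJC1 (0.01) did not pass. None of the 5 DNAJ proteins of the ER membrane passed. Their values were 0.11 for DNAJB14, 0.07 for DNAJB12, 0.00 for DNAJC14, -0.11 for DNAJC16 and -0.12 for DNAJC18. Of the 5, DNAJB14 passed when shIFITM3 replicate 2 was left out (0.17, edgeR adjusted p = 0.045).

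In the ER, 9 of 19 tested folding and stress partners rose (47.4%) and 3 fell (15.8%), beside 27.7% and 28.4% of all tested genes (median 0.07). This list was chosen with earlier results of these data known, so its shares cannot serve as support. HERPUD1, which acts in degradation from the ER, was the partner with the largest rise, at 13.1 ± 1.74 and 28.2 ± 0.309 CPM (1.12 on the log2 scale with an SE of 0.0879, adjusted p = 1.08e-10 in edgeR). The oxidase ERO1A rose from 156 ± 6.7 to 254 ± 7.1 CPM (0.71, edgeR adjusted p = 8.54e-14) and the stress factor XBP1 from 24.5 ± 1.07 to 39.7 ± 3.12 CPM (0.69, edgeR adjusted p = 5.59e-09). The abundant folding enzymes PDIA4 (0.03), PDIA6 (-0.01) and P4HB (0.03) and the lectin chaperone CANX (-0.01) did not pass. These 4 were chosen after their values were seen. Other abundant partners did change. HYOU1 (0.32) and CALR (0.12) rose, and the 3 that fell were UGGT1 (-0.34), SERPINH1 (-0.32) and SEC63 (-0.15).

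DNAJ proteins of vesicles and those placed in no compartment make up the rest. DNAJC6, or auxilin, which starts the removal of clathrin coats, was at 34.5, 29.3 and 30.9 CPM in shControl and 56.3, 51.6 and 58.2 CPM in shIFITM3. It rose with no overlap (0.83 on the log2 scale with an SE of 0.0644, adjusted p = 1.01e-10 in edgeR). DNAJC5, which guards proteins of secretory vesicles, rose slightly, from 166 ± 2.45 to 184 ± 5.45 CPM (0.16, edgeR adjusted p = 0.000791), and DNAJC13, a factor of endosomes, did not pass (-0.05, edgeR adjusted p = 0.308). Of 4 tested members without a placement DNAJC4 rose, from 18.5 ± 0.638 to 23.7 ± 2.07 CPM (0.36, edgeR adjusted p = 0.000591). It shares 10.6% of its exon bases with NUDT22 on the same strand. NUDT22 was at 31.8 and 35.4 CPM on average and rose too (0.15, edgeR adjusted p = 0.0401), and the share of its reads in the DNAJC4 counts is unknown. DNAJC22 (-0.05), DNAJC25 (-0.02) and DNAJC27 (-0.16) did not pass.

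To compare members directly, the ratio of CPM between 2 genes was taken within each sample for 5 pairs chosen after their values were seen, which leaves library scaling out. The ratio of HSPA5 to HSPA9, the HSP70 of the ER over that of mitochondria, was 1.13, 1.13 and 1.10 in shControl and 1.77, 1.70 and 1.81 in shIFITM3, a 1.57-fold difference. That of HSP90B1 to HSP90AA1, ER over cytosol, was 0.0666 ± 0.00144 and 0.0904 ± 0.00288 (1.36-fold, SD, n = 3 each). DNAJB1 over DNAJA1 went from 0.639, 0.709 and 0.693 to 1.557, 1.497 and 1.479, so that their order in counts turned (2.22-fold). CCT8 over CCT6A, within TRiC, was 0.249 ± 0.00588 and 0.307 ± 0.0109 (1.23-fold). HSPB8 over HSPB1 was 0.0406 ± 0.00449 and 0.104 ± 0.0227 (2.54-fold). In all 5 pairs the groups did not overlap. A two-sided exact permutation test gave p = 0.1 for each, the smallest that 3 samples against 3 allow. Benjamini-Hochberg adjustment over the 5 pairs left it at 0.1. As the pairs were chosen after their values were seen, neither the lack of overlap nor this test can serve as support.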

How the data were processed

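RNA of 6 PC-9 samples was sequenced from Illumina Stranded mRNA libraries, per the labels' protocols. The values deposited by the authors are unnormalized read counts, 1 row for each gene symbol. The submitters' processing notes list HISAT2 2.2.1, Subread 2.0.6 with featureCounts, SAMtools 1.20, fastp 0.23.4, FastQC 0.12.1 and the build hg38. Annotation and strand setting: not given in the sources used here. Of the tested members, 21 of 72 share exon sequence with another tested gene (3 on the same strand) in GENCODE release 29, so these values may hold reads of both. Of counts from 1 to 20, 76.5% were even, so counts may come in pairs and intervals based on single counts would be too narrow. What separates the biological replicates is not stated. The p-values set the difference between groups against the spread among these samples, and variation between further cell populations or hairpins is not covered.

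Counts were analysed with edgeR 4.0.16 (R 4.3.3). The 14018 genes that passed filterByExpr were scaled by TMM, fitted with glmQLFit on group and tested two-sided with glmQLFTest. Adjustment was by Benjamini-Hochberg over all tested genes. Standard errors are the absolute log2 fold change over the square root of F. The script was tested on simulated data. A count of 0 allows up to 3 counts, 0.039 to 0.141 CPM by library. The mean and SD are over 3 samples.

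All 83 members matched RefSeq (GRCh38.p14) by current or older symbol, which gave the coordinates. Pseudogene rows were left out by RefSeq biotype. Members, compartments and partner lists were chosen with earlier results of these data known. Named were the main members of each family, changed members with an absolute log2 fold change of at least 0.5, and the 3 with the smallest p per class and partner list. Further members are named to account for all of them. Alternatives were scaling by total count, by RLE or by upper quartile, no filter, at least 50 counts in 3 samples, DESeq2 1.42.0, limma-voom (limma 3.58.1), a replicate block, thinning of the deepest library and leaving out each sample.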

Additional observations from a re-analysis of the deposited data

How the results depend on the processing

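Under the 15 alternatives the number of members that rose stayed between 14 and 18 (main 17) and that of members that fell between 27 and 34 (main 31). Leaving out each sample gave 14 to 18 and 27 to 29. Changed members numbered 19 to 27 in the cytosol, 5 to 6 in the ER, 5 to 7 in mitochondria and 7 to 8 in TRiC. Of the 48 changed members, 41 were also called without shControl replicate 2, the lowest of the settings run. The 9 members that lost their call in some setting were CCT8, DNAJA2, DNAJA3, DNAJA4, DNAJB4, DNAJC15, DNAJC21, HSPA12B and HSPA1A. With every sample kept, DNAJA2, DNAJC21 and HSPA1A lost it under total-count scaling, the filter of 50 counts, DESeq2 and thinning. DNAJA2 also lost it under RLE scaling and DNAJA4 in limma-voom. DNAJA4 and HSPA12B were too low to be tested under the filter of 50 counts. Samples with the same replicate number did not deviate together (r = 0.0157, 0.033 and 0.0063), so the numbers were not taken as pairs. With the replicate block 16 members rose and 31 fell (7870 of all genes changed), and DNAJA4 missed the threshold (0.87, adjusted p = 0.0742).

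Signs turned only in members that did not pass. With upper-quartile scaling DNAJB5 was at -0.0063, DNAJC1 at -0.01, DNAJC14 at -0.0171 and HSF2 at -0.0074. DNAJC14 was at -0.0041 with no filter. In limma-voom DNAJB5 was at -0.0417, DNAJC25 at 0.0141 and HSPA1B at 0.0018. With the deepest library thinned DNAJC14 was at -1e-04, DNAJC22 at 0.005 and HSF2 at -0.0222. Leaving out single samples, values ran from -0.266 to 0.0508 for CCT6B, -0.2937 to 0.1821 for DNAJB5, -0.0269 to 0.0261 for DNAJC1, -0.0232 to 0.0283 for DNAJC14, -0.1553 to 0.1285 for DNAJC22, -0.0274 to 0.0858 for DNAJC24, -0.0794 to 0.0678 for DNAJC25, -0.0595 to 0.0761 for HSF2 and -0.0803 to 0.0152 for HSPA1B. Calls gained were DNAJC17, DNAJC8 and HSPB11 with upper-quartile scaling, DNAJC17 without shControl replicate 3 and DNAJB14 without shIFITM3 replicate 2. The cause was not tested. Depth limits the members under about 3 CPM, among them HSPA12B, DNAJA4, HSPA6 and HSPB6, whose standard errors were above 0.4.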
